A study of Mus with 7 samples.

Results

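The genes described here are 10 transcripts of the ATF4 and CHOP stress response, Atf4, Atf5, Ddit3 (the gene of CHOP), Trib3, Chac1, Ddit4, Sesn2, Asns, Psat1 and Phgdh. They were chosen by symbol, and all 10 were found once each among the 31053 genes of the count files. They were followed in mouse fetal liver-derived macrophages (FLMs), a self-renewing culture grown from C57BL/6J wild-type fetal livers with 30 ng/mL GM-CSF, which stayed in the medium of every group. Con cells were collected in 10% FBS before any treatment. The other groups were kept for 24 h in 0.25% FBS with 8.3 µM BSA, either alone (Veh) or carrying 25 µM docosahexaenoic acid (DHA, an omega-3 fatty acid), and were collected then (Veh.LPS.0 and DHA.LPS.0), or after that medium had been taken off and replaced by reduced-serum medium with 20 ng/mL LPS for 1 h (Veh.LPS.1 and DHA.LPS.1) or 4 h (Veh.LPS.4 and DHA.LPS.4). LPS therefore came with fresh medium without BSA or DHA, and the 2 changes cannot be told apart. Each of the 7 conditions was 1 single-cell library, so no difference has a replicate check, and the sources used here do not give the number of livers or cultures behind a library.

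The integrated stress response starts when a kinase that senses misfolded protein, scarce amino acids, missing heme or viral RNA phosphorylates the translation factor eIF2α. General translation then drops while the Atf4 message is translated better, and the ATF4 protein switches on genes for amino acid supply together with the transcription factor CHOP. Persistent CHOP activity is linked to cell death, and PPP1R15A (GADD34), another product of the response, removes the phosphate and closes the loop. ATF4 is regulated largely at translation, so its mRNA level is only part of its activity, and neither protein nor eIF2α phosphorylation was measured in these files.

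Levels are UMIs (unique molecular identifiers, 1 per captured molecule) summed over the cells of a library and scaled to the library's total, as CPM. The cells were the barcodes with over 20000 UMIs, at least 2000 genes and under 20% of UMIs from the 13 mt- genes. They numbered 2908 in Con, 2481, 3073 and 993 in Veh at 0, 1 and 4 h, and 698, 795 and 692 in DHA. The libraries differed in what this filter removed, since 12.1 to 18.5% of barcodes were kept in the 3 DHA libraries and 40.6 to 62.5% in the other 4. Library totals ran from 22045775 to 125716982 UMIs, and median depth from 29369 to 56239 UMIs per cell. Shares of cells are therefore given with every cell thinned to 20000 UMIs. Of the 11640 cells, 135 had a barcode that also occurred in another library, and leaving them out changed no count of genes given here. All cells carried 3 or more of 9 macrophage markers and none carried 3 markers of any of 9 other cell types, so there was no cell type without these genes in which free RNA could be read. Ratios of CPM carry an exact binomial 95% interval and levels an exact Poisson interval, both covering counting error alone. A gene was called higher or lower when its ratio passed 1.5-fold, among 8628 genes with a mean of at least 5 CPM, which all 10 genes passed.

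**Figure D1:**
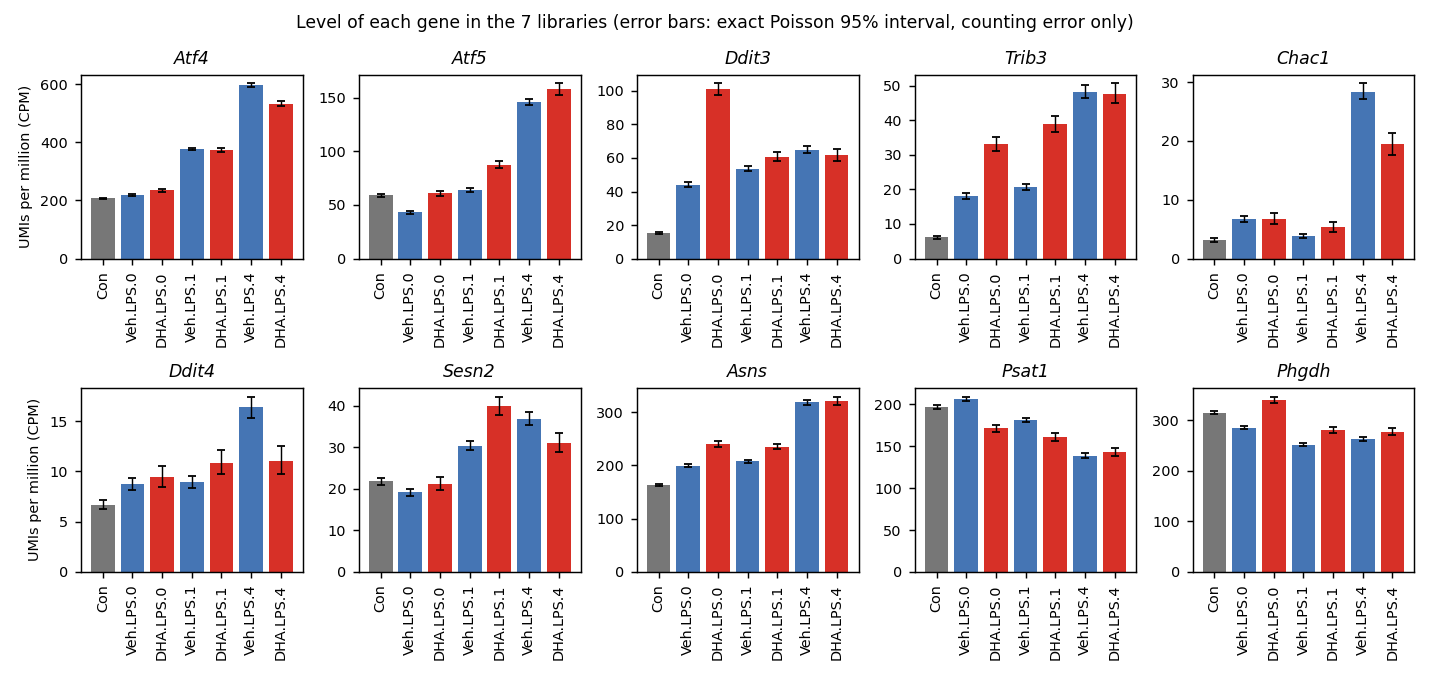
Level of each of the 10 genes, in CPM from 0 on each y axis, in the 7 libraries on the x axis (grey Con, blue Veh, red DHA), with exact Poisson 95% intervals for counting error. Ddit3 was highest in DHA.LPS.0 at 101 CPM, while Atf4, Atf5, Trib3, Chac1, Ddit4 and Asns were highest after 4 h of LPS, and Psat1 was lowest there.

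Atf4 (ENSMUSG00000042406, chr15:80255184-80257545 in mm10), the transcription factor at the centre of the response, stood at 207 CPM in Con. The Veh libraries of 0, 1 and 4 h held 219, 377 and 596 CPM, and the DHA libraries of those hours 236, 372 and 533 CPM. Its level went up with the hours of LPS in both treatments, and at each hour the DHA and Veh libraries were close, with ratios from 0.894 to 1.07. The 95% intervals of Veh.LPS.1 and DHA.LPS.1 overlapped, and those of the other neighbours in the order of levels did not. Atf5 (ENSMUSG00000038539, chr7:44812256-44816658), a related bZIP factor that is also translated when eIF2α is phosphorylated, stood at 58.8 CPM in Con, with 43.0, 63.7 and 146 CPM in the Veh series and 60.7, 87.6 and 158 CPM in the DHA series. It was lowest in Veh.LPS.0, and at each hour the DHA library was the higher one, although no DHA difference of Atf5 passed 1.5-fold.

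Ddit3 (ENSMUSG00000025408, chr10:127290793-127296291), the gene of CHOP, stood at 15.2 CPM in Con, with 44.1, 53.5 and 64.9 CPM in the Veh series (0, 1, 4 h) and 101, 60.8 and 61.7 CPM in the DHA series. Con was far below all 6 reduced-serum libraries and DHA.LPS.0 stood above all others, while the 4 LPS libraries lay close together. Among those 4, the intervals of DHA.LPS.1, DHA.LPS.4 and Veh.LPS.4 overlapped from each to the next. Thinned to equal depth, 22.4% of Con cells held a Ddit3 UMI, against 33.8% in Veh.LPS.0 (exact binomial interval 32.0 to 35.7) and 55.2% in DHA.LPS.0 (51.4 to 58.9). In the LPS libraries the shares were 50.7, 55.1, 53.7 and 56.4% in Veh.LPS.1, DHA.LPS.1, Veh.LPS.4 and DHA.LPS.4, so DHA.LPS.0 stood with the LPS libraries by share of cells and above them by level.

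Trib3 (ENSMUSG00000032715, chr2:152337425-152344060) encodes a pseudokinase that is induced by ATF4 and CHOP and dampens both ATF4 and AKT signalling. Its level was 6.2 CPM in Con, 18.0, 20.6 and 48.3 CPM along the Veh series and 33.1, 38.9 and 47.7 CPM along the DHA series. The DHA libraries were the higher ones at 0 and 1 h, and at 4 h the Veh library reached the same level, with overlapping intervals. The share of cells with a Trib3 UMI at equal depth followed the same order except for the 4 h pair, from 9.80% in Con to 22.3, 25.6 and 50.6% in Veh and 39.3, 42.5 and 54.3% in DHA.

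Chac1 (ENSMUSG00000027313, chr2:119351242-119354326) encodes an enzyme that breaks down glutathione. Its level was 3.13 CPM in Con, 6.67, 3.80 and 28.4 CPM along the Veh series and 6.77, 5.31 and 19.4 CPM along the DHA series. Both 4 h libraries stood above the rest, and both 1 h libraries lay below their 0 h counterparts. At equal depth 39.3% of the cells of Veh.LPS.4 held a Chac1 UMI, 27.5% of those of DHA.LPS.4, and at most 11.7% of those of any other library.

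Ddit4 and Sesn2 encode brakes on mTORC1, the kinase that couples nutrients to growth. Ddit4 (REDD1, ENSMUSG00000020108, chr10:59949675-59951770) was scarce throughout, with 6.68 CPM in Con, 8.75, 8.93 and 16.4 CPM along the Veh series and 9.48, 10.9 and 11.1 CPM along the DHA series. Veh.LPS.4 was the highest library and the intervals of neighbouring libraries overlapped from Veh.LPS.0 up to DHA.LPS.4. Sesn2 (ENSMUSG00000028893, chr4:132492804-132510456), a leucine-binding inhibitor of mTORC1 signalling, stood at 21.9 CPM in Con, with 19.2, 30.4 and 36.9 CPM in the Veh series and 21.2, 40.0 and 31.1 CPM in the DHA series. Its highest library was DHA.LPS.1, whose interval overlapped that of Veh.LPS.4.

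The last 3 genes encode enzymes that make amino acids and are textbook ATF4 targets. Asns (asparagine synthetase, ENSMUSG00000029752, chr6:7675165-7693209) stood at 163 CPM in Con, with 199.5, 208 and 318 CPM in the Veh series and 240.0, 235 and 322 CPM in the DHA series. It was lowest in Con and highest at 4 h, where Veh and DHA had overlapping intervals. Psat1 (phosphoserine aminotransferase, ENSMUSG00000024640, chr19:15905123-15925059) stood at 197 CPM in Con, with 206, 181 and 139 CPM in the Veh series and 172, 161 and 143 CPM in the DHA series, an order that put the 4 h libraries lowest. Phgdh (phosphoglycerate dehydrogenase, ENSMUSG00000053398, chr3:98313171-98339969), the enzyme that diverts glycolysis into serine, stood at 314 CPM in Con, with 285, 251 and 262 CPM in the Veh series and 340.2, 280.4 and 276 CPM in the DHA series. Its highest library was only 1.35 times its lowest, the narrowest range of the 10 genes, against 9.06 times for Chac1, 7.79 for Trib3 and 6.65 for Ddit3.

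The first comparison asked what 24 h of reduced serum with BSA did before any DHA or LPS. Veh.LPS.0 cells had also been 24 h longer in culture than Con, after a change of medium. These differences cannot be told apart. Ddit3, Trib3 and Chac1 were higher in Veh.LPS.0 than in the Con library, by 2.90-fold, 2.91-fold and 2.13-fold, and none of the 10 genes was lower by over 1.5-fold. Atf4 itself had a ratio of 1.06 and Asns one of 1.22, and Atf5 was the member furthest below 1, at 0.731. Of all 8628 genes, 10.3% were higher and 7.31% lower by this limit. The median log2 ratio was 0.19 over the 10 genes and -0.05 over all genes.

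Genes of neighbouring pathways differed in direction here. Of 6 CHOP-linked genes, 4 were higher (Ero1l, Ppp1r15a, Bcl2l11 and Ern1) and none was lower, with a median log2 ratio of 0.67. Of 20 genes of the ATF6 and XBP1 branch, the endoplasmic reticulum chaperones and their helpers, 12 were lower and 1 was higher, with a median of -0.66. Hspa5, the chaperone BiP, went from 1732 CPM in Con to 1089 CPM in Veh.LPS.0. None of 8 amino acid transporters passed the limit in either direction (median -0.21), and of 20 cytosolic aminoacyl-tRNA synthetases 1 did (Sars, higher). The shares over all genes were 10.3% higher and 7.31% lower.

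**Figure D2:**
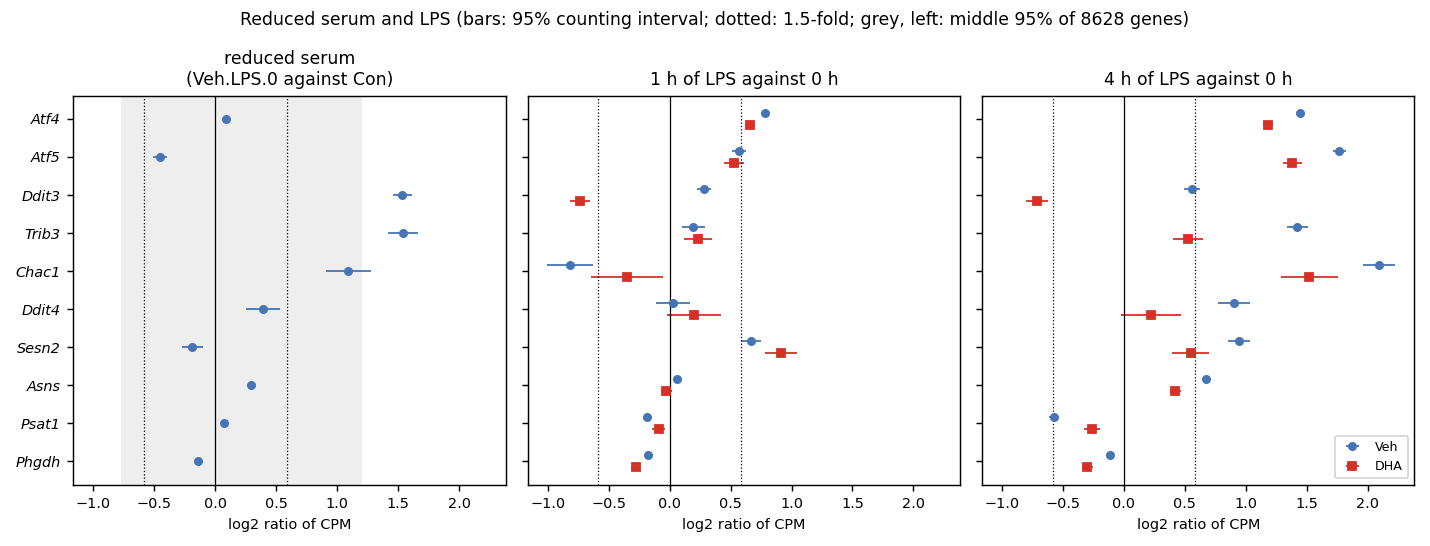
Log2 ratio of CPM for the 10 genes (x axis) for Veh.LPS.0 against Con (left), for 1 h of LPS against 0 h (middle) and for 4 h against 0 h (right), in Veh (blue circles) and DHA (red squares), with 95% counting intervals, dotted lines at 1.5-fold and, at left, the middle 95% of all genes in grey. Ddit3 is on opposite sides of 0 in Veh and DHA, at 0.28 and -0.74 after 1 h and 0.56 and -0.71 after 4 h.

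The next comparisons set 1 h of LPS against 0 h within each treatment. Atf4 and Sesn2 were the higher genes in both, Atf4 by 1.72-fold in Veh and 1.58-fold in DHA, and Sesn2 by 1.59-fold and 1.88-fold. Chac1 was lower in Veh, with a ratio of 0.569, and Ddit3 was lower in DHA, with a ratio of 0.6005. The 0 h levels of Ddit3 behind its LPS ratios, in Veh as in DHA and at 1 h as at 4 h, may include cells of another condition, as given below. The background was 4.54% of genes higher and 4.28% lower in Veh, and 5.16% higher and 4.57% lower in DHA. Atf5, at 1.48-fold in Veh and 1.44-fold in DHA, lay just inside the limit and passed it in both with the TMM factors of edgeR, which put 5.52% of genes higher and 3.22% lower in Veh and 6.55 and 2.99% in DHA. Without any filter on barcodes the ratio of Ddit3 in DHA stayed below 1 but no longer passed the limit, at a log2 value of -0.51. Among other genes of the pathway, Ppp1r15a, the eIF2α phosphatase subunit, went from 27.6 to 287 CPM in Veh and from 41.3 to 324 CPM in DHA. Of 8 amino acid transporters, 3 were higher in both treatments (Slc7a11, Slc7a1 and Slc38a2), and of 20 tRNA synthetases none passed the limit in either.

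After 4 h of LPS in Veh, 7 of the 10 genes were higher than in Veh.LPS.0, Chac1 by 4.26-fold, Atf5 by 3.40-fold, Atf4 by 2.72-fold, Trib3 by 2.68-fold, Sesn2 by 1.92-fold, Ddit4 by 1.87-fold and Asns by 1.59-fold. None was lower, and Ddit3 at 1.47-fold and Psat1 at 0.671 lay just inside the limits. Of all genes 9.74% were higher and 39.2% lower, with a median log2 ratio of -0.38 against 0.92 for the 10 genes. In DHA, Chac1 (2.87-fold), Atf5 (2.60-fold) and Atf4 (2.26-fold) were higher than in DHA.LPS.0 and Ddit3 was lower, with a ratio of 0.610. There the background was 10.1% higher and 32.5% lower, with a median of -0.27 against 0.48. Trib3 differed by 1.44-fold, Sesn2 by 1.46-fold and Asns by 1.34-fold in DHA.

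The median of all genes was well below 0 at 4 h, so the counts depend on the scaling. With the TMM factors that median was 0.05 in Veh and 0.03 in DHA. The members called higher were then 8 in Veh, now with Ddit3, and 6 in DHA, now with Trib3, Asns and Sesn2, and Ddit3 was no longer called lower in DHA (log2 ratio -0.41). Calls over all genes were 20.7% higher and 21.6% lower in Veh on that scale, and 19.1% and 19.9% in DHA. Relative to the median gene, therefore, each member stood further up than its CPM ratio shows. Psat1 in Veh, and Ddit3 and Phgdh in DHA, were still below the median gene.

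The amino acid transporters were the neighbouring list with the highest median at 4 h, 0.96 in Veh and 0.86 in DHA on the log2 scale. In both treatments 5 of 8 were higher (Slc7a11, Slc3a2, Slc7a1, Slc38a2 and Slc38a1) and none was lower. Slc7a11, the cystine importer, held 28.4, 82.5 and 262 CPM along the Veh series and 39.2, 108 and 298 CPM along the DHA series. Of the serine, glycine, one-carbon and proline enzymes, 3 of 13 were higher and 4 lower in Veh, and 2 were higher and 6 lower in DHA. The shares over all genes were 9.74% higher and 39.2% lower in Veh, and 10.1% and 32.5% in DHA. Mthfd2, the mitochondrial folate enzyme, was among the higher ones in Veh, at 319.5 CPM against 213 CPM at 0 h. Of the synthetases, 2 of 20 were higher and 3 lower in Veh, a smaller part lower than among all genes. Proliferation genes moved far in the same comparison, 10 of 12 being lower in Veh and 9 of 12 in DHA. Within cells at or below the overall median of those 12 genes, the members called higher numbered 7 in Veh and 3 in DHA. The share of all genes called is not given for those cells. Their median log2 ratio was 1.01 over the members and -0.34 over all genes in Veh, and 0.34 and -0.24 in DHA.

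The question of the DHA comparisons was how the fatty acid changed gene expression at each hour. At 0 h, Ddit3 was 2.30-fold higher with DHA (95% counting interval 2.20 to 2.40) and Trib3 was 1.84-fold higher (1.70 to 1.98). No other member passed the limit, and none was lower by it. Only 1.29% of all genes were higher and 1.12% lower by 1.5-fold in this comparison. Atf5 at 1.41-fold came closest outside the limit, Atf4 had a ratio of 1.07 (1.05 to 1.10), Asns of 1.203 and Phgdh of 1.19, Chac1 of 1.01 (0.870 to 1.18), and Psat1 was the member below 1, at 0.831. The median log2 ratio was 0.20 over the 10 genes and -0.05 over all genes.

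**Figure D3:**
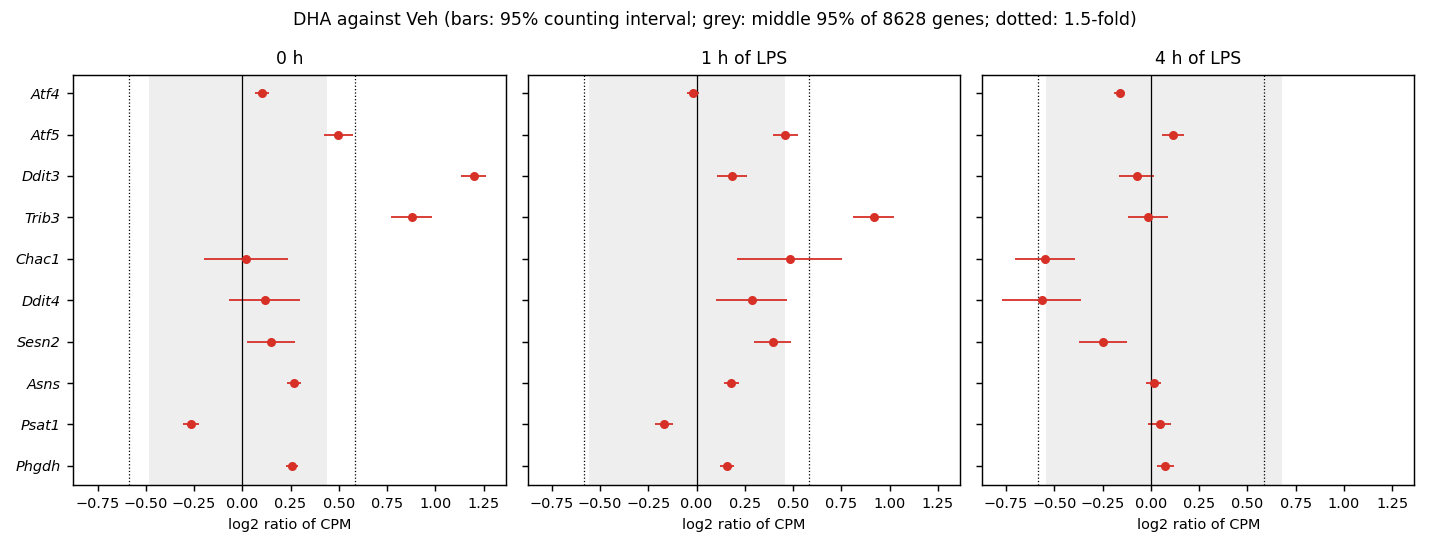
Log2 ratio of CPM of DHA against Veh (x axis) for the 10 genes at 0, 1 and 4 h of LPS, with 95% counting intervals, dotted lines at 1.5-fold and the middle 95% of all genes in grey. Ddit3 and Trib3 lie past the limit at 0 h and Trib3 alone at 1 h, and at 4 h no gene does.

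After 1 h of LPS, Trib3 was 1.89-fold higher in DHA than in Veh (1.76 to 2.03), and Ddit3 had a ratio of 1.14 (1.08 to 1.197). The background was 1.55% of genes higher and 1.99% lower, and none of the 10 genes was lower by the limit. Atf5 (1.37-fold), Chac1 (1.40-fold) and Sesn2 (1.31-fold) were the next highest ratios, and the median log2 ratio was 0.23 over the members against -0.05 over all genes. After 4 h no member passed the limit in either direction, where 3.98% of genes were higher and 2.17% lower. The median log2 ratio was then -0.04 over the members, 4 of them above 0 and 6 below, against 0.09 over all genes. Trib3 had a ratio of 0.989 (0.920 to 1.06) and Ddit3 of 0.951 (0.893 to 1.01). Ddit4 at 0.676 (0.585 to 0.779) and Chac1 at 0.684 (0.613 to 0.761) lay just inside the lower limit, at percentiles 2.31 and 2.40 of all genes. The TMM factors moved the median log2 ratio of all genes from 0.09 to -0.03 and the calls to 2.20% higher and 3.07% lower. With those factors Ddit4 and Chac1 passed the lower limit. Each hour's DHA value was set against that hour's own Veh library, but the LPS comparisons reuse the 0 h libraries of these ones, so a high Ddit3 level in DHA.LPS.0 enters both the DHA ratio at 0 h and the LPS ratios in DHA.

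The cells kept by the filter were a much smaller part of the barcodes in DHA than in Veh, and 76.4% of the DHA.LPS.0 barcodes had at least 20% mitochondrial UMIs against 37.8% in Veh.LPS.0. Among cells under 10% mitochondrial UMIs, the 0 h ratio of Ddit3, over non-mitochondrial UMIs, was 2.35 (2.24 to 2.46), and among cells from 10 to 20% it was 1.80 (1.49 to 2.17). For Trib3 the same ratios were 1.82 (1.68 to 1.96) and 2.46 (1.79 to 3.38). With no filter on barcodes both genes still passed the limit at 0 h, Trib3 only just, with log2 ratios of 0.79 and 0.59. At 1 h the Trib3 ratio was 1.93 (1.79 to 2.08) under 10% and 1.85 (1.32 to 2.61) from 10 to 20%. Over all barcodes its log2 value of 0.55 no longer passed, while the median of all genes was -0.29 there in place of -0.05. Proliferation differed between the treatments as well, with a mean of 53.9 UMIs of the 12 proliferation genes per cell in Veh.LPS.0 and 42.5 in DHA.LPS.0. In cells at or below the overall median of those genes, the 0 h log2 ratios were 1.26 for Ddit3 and 1.15 for Trib3.

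Other genes of the pathway were mostly within 1.5-fold in the DHA comparisons. At 0 h 0 of 20 ATF6 and XBP1 branch genes passed the limit (median log2 ratio 0.02), 0 of 20 tRNA synthetases (0.07), 0 of 8 transporters (0.04) and 0 of 13 serine, glycine, one-carbon and proline enzymes (0.11). Of all genes, only 1.29% were higher and 1.12% lower there, so 0 in lists of this size is close to that share. The list genes past the limit were Atf3, a stress-induced bZIP repressor, at 62.1 CPM with DHA and 39.7 CPM without, and Ero1l, the oxidase that CHOP is known to induce, with 233 and 149 CPM. Ppp1r15a, at 41.3 and 27.6 CPM, gave a ratio of 1.497 just below the limit. The 0 h levels of these genes may also include cells of another condition, as given below. Values without such cells are given for members only. Cebpb and Cebpg, partners of CHOP and ATF4, had ratios of 1.14 and 1.08, Hspa5 of 1.23, Slc7a11 of 1.38 and Mthfd2 of 1.02.

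At 1 h Ero1l was again higher in DHA, at 259 against 160.2 CPM, and Bcl2l11, a proapoptotic gene of the CHOP list, was lower, at 139 against 215 CPM. Of the 12 proliferation genes, all were below 1 in the DHA ratio at that hour (median log2 ratio -0.47), and 4 passed the limit, Rrm2 with a ratio of 0.573 and Mki67, Top2a and Cdk1 with 0.649, 0.6498 and 0.6505. At 0 h all 12 had been below 1 as well, none past the limit, with a median of -0.36. At 4 h the direction was the other one, with a median of 0.37 and 5 of 12 higher in DHA, Ccnb1 by 1.65-fold, Top2a by 1.58-fold, Mki67 by 1.57-fold and Birc5 by 1.56-fold, and Cdk1, the fifth and named here after its value was seen, by 1.503-fold. Over all genes, 1.99% were lower at 1 h, and 3.98% were higher and 2.17% lower at 4 h. The genes of the other lists past the limit at 4 h were all lower in DHA. Atf3 had 261 CPM in DHA and 419 CPM in Veh, Herpud1, a component of endoplasmic reticulum degradation, 204 and 325 CPM, and Bcl2l11 108 and 185 CPM. Eif2ak2, the double-stranded RNA kinase PKR, had 117 and 210 CPM, and Pmaip1 5.81 and 9.78 CPM. At that hour Slc7a11 had a ratio of 1.14, Hspa5 of 0.805, Cebpb of 1.22, Cebpg of 1.15, Ppp1r15a of 0.797 and Mthfd2 of 0.987.

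Ddit3 was the most unevenly spread of the 10 genes over the cells of the 6 reduced-serum libraries, by the ratio of variance to mean. In cells thinned to 20000 UMIs its variance was 8.38 times its mean in DHA.LPS.0 and 6.01 times in Veh.LPS.0, and from 1.99 to 4.30 times in the other libraries, where independent counts around 1 level would give 1. For the other 9 genes the ratio ran from 1.08 to 2.69 over all libraries, and in Con that of Ddit4, at 2.13, was above the 1.99 of Ddit3. At least 5 Ddit3 UMIs were found in 87 of 698 DHA.LPS.0 cells, or 12.5% (exact binomial interval 10.1 to 15.1), and in 113 of 2481 Veh.LPS.0 cells, or 4.55% (3.77 to 5.45). In Con they were found in 9 of 2908 cells, and in Veh.LPS.1, DHA.LPS.1, Veh.LPS.4 and DHA.LPS.4 in 4.30, 5.41, 6.95 and 5.35%.

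**Figure D4:**
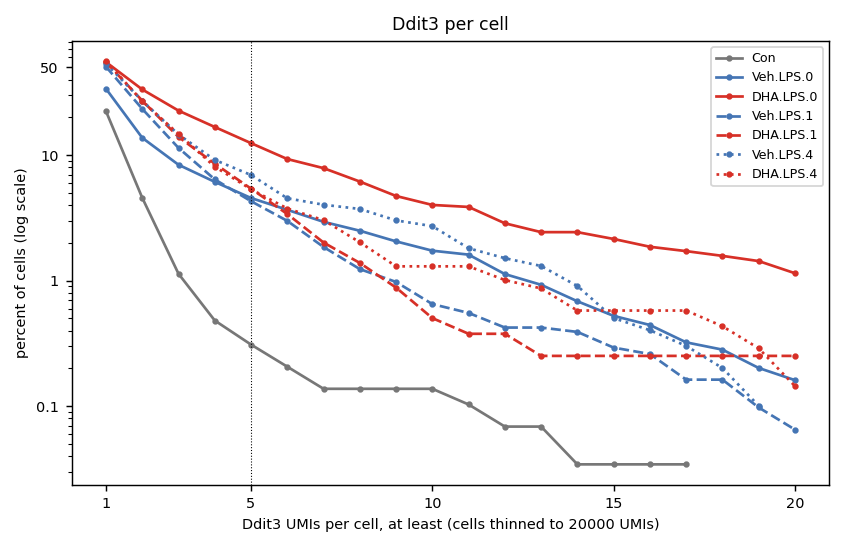
Percent of cells (y axis, log scale) with at least the number of Ddit3 UMIs on the x axis, in cells thinned to 20000 UMIs, for Con (grey), Veh (blue) and DHA (red) at 0 h (solid), 1 h (dashed) and 4 h of LPS (dotted). DHA.LPS.0 starts with the LPS libraries, at 55.2% of cells with 1 or more UMIs, and lies above every other library from 2 UMIs on, with 4.01% of cells at 10 or more.

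What else these cells held was compared within each library, between the cells with at least 5 Ddit3 UMIs and those with 0. By label, serum, fatty acid and LPS were then the same on both sides. In the 0 h libraries, however, cells of another condition may be present among those high in Ddit3, as given below. Cells of 1 library give a description, not a test. In Veh.LPS.0, 7 of the other 9 members were higher by over 1.5-fold in the cells with at least 5, against a background of 10.1% of all genes, and in DHA.LPS.0, 4 of 9 were, against 6.60%. None was lower in either. The counts in Veh.LPS.1, DHA.LPS.1, Veh.LPS.4 and DHA.LPS.4 were 5, 3, 4 and 3 of 9, against 7.06, 4.44, 10.5 and 11.8% of all genes. Con had too few such cells to be compared. These counts use all UMIs of the cells, and with every cell thinned to 20000 UMIs the count in Veh.LPS.0 was 6, since Ddit4 was at 1.34 in place of 1.55, while those of the other 5 libraries did not change.

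Trib3 stood at 110.0 CPM in the Veh.LPS.0 cells with at least 5 Ddit3 UMIs and at 8.70 CPM in those with 0, for a ratio of 12.7 (11.2 to 14.3). In DHA.LPS.0 the levels were 93.5 and 13.9 CPM, for a ratio of 6.73 (5.70 to 7.97). The Trib3 ratio was above the limit in all 6 libraries compared, with 6.93, 2.16, 3.24 and 2.54 in Veh.LPS.1, DHA.LPS.1, Veh.LPS.4 and DHA.LPS.4. Atf4 had ratios of 2.64 in Veh.LPS.0 and 2.01 in DHA.LPS.0, Chac1 of 5.11 and 2.72, and Asns of 1.75 and 1.42. The enzymes of the serine pathway did not pass the limit in either library, with Psat1 at 0.864 and 0.717 and Phgdh at 1.23 and 1.18. In DHA.LPS.0, Atf5 at 1.28 and Ddit4 at 0.763 did not pass it either.

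**Figure D5:**
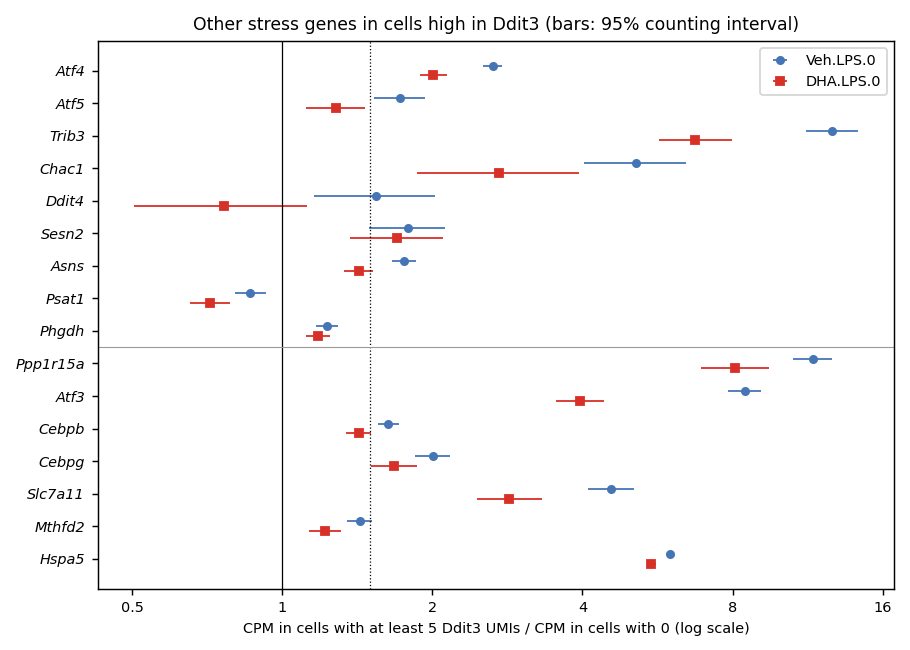
Ratio (x axis, log scale) of CPM in cells with at least 5 Ddit3 UMIs to CPM in cells with 0, in Veh.LPS.0 (blue) and DHA.LPS.0 (red), with 95% counting intervals, for the other 9 members above the grey line and 7 further stress genes below it, with a dotted line at 1.5. Trib3, Ppp1r15a, Atf3 and Hspa5 have the largest ratios, and Psat1 is below 1 in both libraries.

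The chaperones went with Ddit3 among cells, although they went the other way between Con and Veh.LPS.0. Of the 20 ATF6 and XBP1 branch genes, 15 were higher in the cells with at least 5 Ddit3 UMIs in Veh.LPS.0 and 13 in DHA.LPS.0, and from 11 to 16 in the LPS libraries, with none lower in any of the 6. For Hspa5 the ratio was 5.98 in Veh.LPS.0 (4919 against 822 CPM) and 5.498 in DHA.LPS.0 (4429 against 805 CPM). Ppp1r15a had ratios of 11.6 and 8.08, Atf3 of 8.46 and 3.95 and Slc7a11 of 4.56 and 2.85. The tRNA synthetases higher in the same cells were 10 of 20 in Veh.LPS.0 and 5 of 20 in DHA.LPS.0. The mitochondrial share was no higher in these cells, with a median of 6.83% against 7.63% in Veh.LPS.0 and 6.40% against 7.74% in DHA.LPS.0, and the proliferation list had 2 of 12 genes lower there in Veh.LPS.0 and 9 in DHA.LPS.0, where 8.60 and 12.9% of all genes were lower. The same counts for Veh.LPS.1, DHA.LPS.1, Veh.LPS.4 and DHA.LPS.4 were 5, 0, 2 and 8, against 7.37, 7.80, 12.3 and 11.5% of all genes.

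Genes outside the lists had still larger ratios in those cells, although neither library had received LPS, and the 4 named here were chosen after their values were seen. Cxcl2, a neutrophil-attracting chemokine, had 1231 CPM in Veh.LPS.0 cells with at least 5 Ddit3 UMIs and 33.1 CPM in those with 0, and 582 and 9.13 CPM in DHA.LPS.0. Lcn2, an iron-scavenging acute-phase protein, stood at 56.2 and 0.601 CPM in Veh.LPS.0, against 127 and 2.38 CPM in DHA.LPS.0. Ccl5 and Cxcl10, 2 further chemokines, had 268 against 2.75 and 50.9 against 2.94 CPM in DHA.LPS.0. Such differences were not limited to the libraries without LPS. In the same split by Ddit3, Lcn2 had 57.2 against 2.97 CPM in Veh.LPS.1 and 415 against 16.9 CPM in DHA.LPS.1. Ccl5 had 658 against 22.3 CPM in DHA.LPS.1 and 945 against 158 CPM in DHA.LPS.4. In Veh.LPS.4 none of the 4 was among the genes with the largest ratios. At least 3 UMIs of these 4 genes per 20000 were found in 61.9% of the Veh.LPS.0 cells high in Ddit3 and in 3.29% of those without it, and in 49.4 and 1.28% in DHA.LPS.0.

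Over all cells such cells were 1.07% of Con, 7.21% of Veh.LPS.0 and 12.5% of DHA.LPS.0. They are not counted here for the libraries with LPS. Whether they were a state of the cells of these cultures or cells carried over from wells with LPS was not tested, so the 0 h levels of Ddit3 and the ratios within the 0 h libraries may include cells of another condition. Of these 31, 179 and 87 cells, 1, 2 and 1 had a barcode that also occurred in another library. Without them the Ddit3 level was 14.8 CPM for Con, 28.7 CPM for Veh.LPS.0 and 69.9 CPM for DHA.LPS.0, and that of Trib3 6.15, 13.5 and 27.3 CPM. The levels of both were lower in the 0 h libraries, but the ratio of DHA to Veh was as large as before, 2.44 (2.30 to 2.58) for Ddit3 and 2.02 (1.84 to 2.20) for Trib3. Against Con, the Veh.LPS.0 ratio of Ddit3 was 1.94 (1.83 to 2.06) in place of 2.90, and Trib3 at 2.20 and Chac1 at 1.85 also stayed past the limit. The cells with at least 5 Ddit3 UMIs made up 7.20% of the remaining DHA.LPS.0 cells and 1.87% of those of Veh.LPS.0. Neither the LPS ratios nor the comparisons by Ddit3 UMIs within a library are given for the remaining cells.

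Pairs of members were also compared over single cells. Over the cells of 1 library at equal depth, the Spearman correlation of Atf4 and Trib3 had a median of 0.33 over the 7 libraries (0.13 to 0.42), Asns and Phgdh 0.31 and Atf4 and Asns 0.30. Ddit3 and Trib3 had a median of 0.19, from -0.01 to 0.42, and Ddit3 and Psat1 of -0.00. With so few UMIs per cell these values are bounded by counting, and the points of a library share its depth and handling.

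Across the 7 libraries the pattern of a gene was compared by Pearson's r of log2(CPM + 1), a description over 7 points that share hours of LPS. Between members, Trib3 and Asns had r = 0.92, Atf4 and Atf5 0.91, Ddit3 and Trib3 0.87 and Atf5 and Psat1 -0.96. Over all 8628 genes, those most like Atf4 were Plaur, Ppp2r3d, Slc39a1, Rapgef2 and Acod1, each with r of at least 0.99. Those most like Asns were Eif3c, Lcn2, Rps6kc1, Apbb2 and Ifih1, also at 0.99. For Ddit3 they were Rnaset2a, H2-M3, Ap3s1, Anxa2 and Adh7, with r from 0.95 to 0.97.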

How the data were processed

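For each library the authors deposited raw counts of UMIs per gene and barcode called as a cell, unnormalised and before any filter on cells, with the mm10 build. The file headers and the submitters' notes name Cell Ranger 3.1.0, while the study's methods give another version. From these counts, cells were kept with the study's limits, UMIs were summed per library and scaled by the total (Python 3.11.15, scipy 1.17.1). No doublets were removed, and leaving out the deepest 5% of cells was an alternative. Thinning drew each cell to 20000 UMIs without replacement (seed 1). With 1 library per condition no test was run and calls are by size alone. The ratios and the thinning were checked on simulated counts. Alternatives included the TMM factors of edgeR 4.0.16. The genes and lists were chosen with earlier results of these data known. All 10 genes are named, with list genes past 1.5-fold between DHA and Veh (at most the 4 highest and 4 lowest ratios per comparison and list), Slc7a11, Atf3, Ppp1r15a, Cebpb, Cebpg, Hspa5 and Mthfd2, and the 5 genes most like Ddit3, Atf4 and Asns. Coordinates are from RefSeq (GRCm38). A search of promoters for ATF4 motifs had been planned and was not run, since no sequence was used here.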

Additional observations from a re-analysis of the deposited data

Results flagged for a closer look

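Ddit3 went opposite ways with LPS in the 2 treatments, which is what singled it out here. The log2 ratio of 1 h to 0 h of LPS was 0.28 in Veh and -0.74 in DHA, and that of 4 h to 0 h was 0.56 in Veh and -0.71 in DHA. Each value compares 1 library with 1 library, and the difference between treatments was not tested. Both pairs share the 0 h libraries, in which Ddit3 had 44.1 CPM in Veh and 101 CPM in DHA, while its 4 LPS libraries lay between 53.5 and 64.9 CPM. Without the cells rich in Cxcl2, Lcn2, Ccl5 and Cxcl10, Ddit3 stood at 28.7 CPM in Veh.LPS.0 and 69.9 CPM in DHA.LPS.0. Over all kept cells, the libraries with LPS held 53.5 and 64.9 CPM in Veh and 60.8 and 61.7 CPM in DHA. The 4 genes were chosen from the split of the 0 h cells by Ddit3, so a lower Ddit3 level without cells rich in them was built in. The 0 h levels behind the Ddit3 ratios include those cells in both treatments. No LPS ratio is given without them, in Veh or in DHA.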

How the results depend on the processing

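No called gene changed direction under any alternative. Of the counts of members called, 163 values under alternatives were within 1.5 times the reported count and 17 were not. With TMM factors or median-of-ratios size factors, 6 members in place of 3 were higher and 0 in place of 1 lower after 4 h of LPS in DHA, and 2 in place of 0 were lower with DHA at 4 h of LPS. With no filter on barcodes, the last count was 2 as well, 0 in place of 1 was higher and 1 in place of 0 lower in DHA.LPS.1 against Veh.LPS.1, 1 in place of 0 was lower in DHA.LPS.0 against Veh.LPS.0 and in Veh.LPS.4 against Veh.LPS.0, and 0 in place of 1 was lower in DHA.LPS.1 against DHA.LPS.0. Of all genes without that filter, 5.93, 10.6 and 5.22% were lower in DHA than in Veh at 0, 1 and 4 h. The share higher in DHA at 1 h was 2.41%. In Veh.LPS.4 against Veh.LPS.0, 40.5% were lower, and in DHA.LPS.1 against DHA.LPS.0, 7.68%. Mean per-cell CPM, thinned cells and leaving out the deepest 5% of cells each gave 1 lower in Veh.LPS.4 against Veh.LPS.0, and a mitochondrial limit of 10% or a limit of 10000 UMIs gave 1 lower in DHA.LPS.4 against Veh.LPS.4. The shares over all genes are not given for these alternatives or for the median-of-ratios size factors, so those counts cannot be set against a background. The scaling shifted the median of all genes, as given with the 4 h values. Leaving out the filter on barcodes also lowered the median log2 ratio of all genes in DHA against Veh. It was then -0.24, -0.29 and -0.15 at 0, 1 and 4 h, in place of -0.05, -0.05 and 0.09. The cause of the changed counts was not tested. Over these alternatives and one chosen after seeing the data, without cells rich in Cxcl2, Lcn2, Ccl5 and Cxcl10, the 0 h log2 ratio of DHA to Veh ran from 0.79 to 1.29 for Ddit3 and from 0.59 to 1.15 for Trib3, and that of Trib3 at 1 h from 0.55 to 1.03. Depth limits Ddit4 and Chac1, whose ratios have the widest counting intervals.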
